A study of Mus musculus with 16 samples.

Results

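The Egr genes (Egr1, Egr2, Egr3 and Egr4) and the Nab genes (Nab1 and Nab2) were followed in mouse cochlea at postnatal day 4 (P4) after ablation of Lgr5+ cells. They were taken by gene symbol and are 6 of the 47729 genes with a value in the deposited tables. Egr1 and Egr4 rose after damage in both kinds of RNA measured, whereas Egr2, Egr3 and Nab1 did not pass the test in either, and Nab2 passed in ribosome-bound RNA under a paired fit (a term for the replicate number) and not without it. RNA was sequenced in 16 libraries from 8 pools of cochleae, 4 pools of controls and 4 of damaged (DTR) animals, and each pool came from several mice. Control mice carried GLAST-CreERT/+ and Rpl22-HA/+ (RiboTag). DTR mice carried the same alleles together with Lgr5-DTR-EGFP/+, which places the diphtheria toxin receptor on Lgr5+ cells. According to the methods both genotypes received diphtheria toxin (DT) and tamoxifen at P1, whereas the sample labels describe the controls as untreated, so whether the controls received DT is not settled by these sources.

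Each pool gave an input library, made from whole homogenate of the sensory epithelium, and an IP library, made from ribosomes precipitated through the HA tag. The tag is switched on only in cells with GLAST-Cre activity, which at this age are inner phalangeal cells (IPhCs) and a part of the greater epithelial ridge (GER), the block of cells medial to the hair cells. Before lysis the spiral ganglion, Reissner's membrane and the lateral wall had been dissected away. In bulk RNA of this kind, fewer cells of a type and less RNA per cell cannot be told apart. Counted reads per library ranged from 28089836 to 41966310, and values are CPM, the reads of a gene scaled to a common library total.

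EGR proteins are zinc finger transcription factors that bind a GC-rich site. Several of them are immediate early genes, which are transcribed within minutes of growth factor, stress or injury signals through the ERK kinases and the factors SRF, ELK and CREB, without new protein synthesis. NAB1 and NAB2 have no DNA-binding domain of their own. They dock on a repressor domain shared by EGR1, EGR2 and EGR3 and lacking in EGR4, and Nab2 is itself an EGR target, so that the pair closes a feedback loop. Egr2, also called Krox20, is best known as the driver of myelination in Schwann cells.

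Lgr5 was used to check the damage. It fell from 63.3 ± 3.03 CPM (SD, n = 4) in control input to 15.9 ± 3.69 in DTR input, and from 36.6 ± 3.99 in control IP to 9.38 ± 1.40 in DTR IP (LFC = -1.93, adjusted p = 3.5e-08, limma). Every DTR library lay below every control library. Slc1a3, which encodes GLAST and whose locus drives the Cre, was at 236 ± 21.9 CPM in control IP and 281 ± 14.3 in control input. Its level was thus not higher in the IP. In every control pool it was lower in IP than in input (243.8, 219.3, 218.3 and 264.0 against 273.8, 273.8, 275.1 and 302.8 CPM). In DTR libraries it was lower in IP as well (LFC = -0.27, adjusted p = 0.030, limma). Of 14 markers of GER and supporting cells, 4 were higher and 5 lower in control IP than in control input, against 19.3% and 20.7% of all genes tested. All 12 macrophage markers and 10 of 12 Schwann cell markers were lower in control IP than in control input. No marker of the 7 cell type lists was at 0 in all libraries.

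Egr1, the best studied immediate early gene of the family, was present in undamaged tissue and rose strongly. It lies on chromosome 18 (34859823 to 34864984, plus strand, GRCm38). In control IP it was at 58.4, 55.4, 43.7 and 42.2 CPM in pools 1 to 4, and in DTR IP at 1128, 1099, 324 and 518 CPM. In control input it was at 75.7, 46.3, 53.7 and 45.8 CPM, and in DTR input at 2489, 2273, 687 and 1352 CPM. The groups did not overlap in either kind of RNA, and the lowest DTR IP library was 5.82 times the highest control IP library after quantile normalization. The LFC, the log2 fold change of quantile normalized CPM with 0.5 added, was 3.85 in IP (SE 0.398, 95% interval 3.02 to 4.69, adjusted p = 1.4e-06, limma) and 4.79 in input (95% interval 3.95 to 5.62, adjusted p = 8e-08, limma). This was the 12th largest rise of the 16994 genes tested in IP and the sixth largest in input.

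Egr4, the member without the NAB docking domain, went from near absence to a level like that of Egr2. It is a short gene on chromosome 6 (85511121 to 85513589, minus strand). In control IP it was counted with 1, 1, 0 and 8 reads in pools 1 to 4, and in control input with 0, 4, 0 and 2 reads. In DTR IP it was at 64.7, 37.7, 11.6 and 26.7 CPM, from 351 to 2013 reads per library, and in DTR input at 71.4, 43.5, 11.7 and 33.7 CPM. The groups were thus far apart, and the controls stood at or close to the limit of what this depth can detect. Egr4 had the largest LFC of all genes tested in IP (5.65, 95% interval 4.71 to 6.58, adjusted p = 3.8e-08, limma) and the second largest in input (5.96, adjusted p = 1.9e-08, limma). It passed the filter on low values only through the DTR groups, and the size of the LFC depends on the pseudocount: in IP it was 4.78 with a pseudocount of 1, 7.44 with 0.1 and 8.71 in edgeR on the recovered reads. Scaled to library totals and summed over libraries, its reads were 468 times as many in DTR IP as in control IP, with an exact interval of 254 to 977 that covers counting error only. The 10 control IP reads came mostly from replicate 4, without which 2 reads remained and the ratio was 1800 (498 to 14900). The same ratio in input was 1024 (470 to 2790), and 2380 (658 to 19600) without control input replicate 2, where again 2 reads remained.

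**Figure D1:**
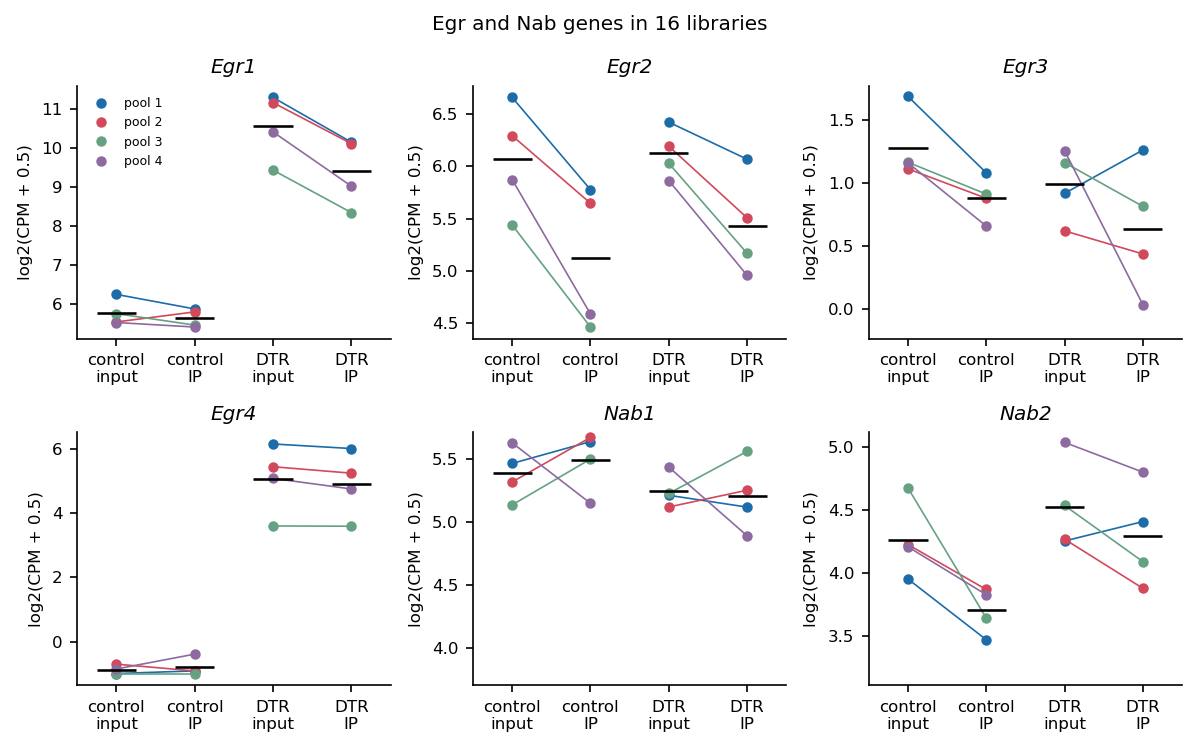
Level of the 6 genes as log2(CPM + 0.5) in each of the 16 libraries; the y axis differs between panels, colours mark the replicate number of a pool, lines join the input and IP of one pool, and black bars are group means (n = 4). Egr1 and Egr4 separate DTR from control libraries completely, whereas the other 4 genes show shifts of about 1 log2 unit or less between group means.

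Egr2 was well expressed, and no difference with damage passed the test. In control IP it was at 54.3, 49.6, 21.5 and 23.5 CPM and in DTR IP at 66.6, 45.0, 35.4 and 30.5 CPM, and in input the groups were at 69.9 ± 25.1 (SD, n = 4) and 70.2 ± 11.9 CPM. Pools 1 and 2 were above pools 3 and 4 in all 4 groups, and the control and DTR values overlapped widely. The LFC was 0.27 in IP (95% interval -0.32 to 0.86, adjusted p = 0.59, limma) and 0.06 in input (95% interval -0.53 to 0.66, adjusted p = 0.93, limma). An LFC of 1 or -1 lies outside both intervals.

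Egr3, which is induced by nerve activity and acts in muscle spindles and lymphocytes, was low, with 16 to 114 reads per library. Its levels were between 0.526 and 2.72 CPM over the 16 libraries, with 1.35 ± 0.220 CPM (SD, n = 4) in control IP and 1.13 ± 0.590 in DTR IP. The LFC was -0.45 in IP (95% interval -0.94 to 0.03, adjusted p = 0.21, limma) and -0.40 in input (95% interval -0.88 to 0.09, adjusted p = 0.33, limma). An LFC of 1 or -1 is outside these intervals, and a smaller fall is not.

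Nab1 and Nab2 were not compared with each other by a test. Nab1 was at 49.3, 50.4, 44.7 and 35.0 CPM in control IP and at 34.2, 37.6, 46.6 and 29.2 CPM in DTR IP. The groups overlapped, with control pool 4 below DTR pools 2 and 3, and the LFC of -0.32 did not pass the test (95% interval -0.62 to -0.03, adjusted p = 0.14, limma). Without DTR IP replicate 3 it was -0.45, with an adjusted p of 0.029 (limma). In input the LFC of Nab1 was -0.14 (adjusted p = 0.63, limma). Nab2 was at 10.6, 14.1, 12.0 and 13.7 CPM in control IP and at 20.8, 14.2, 16.6 and 27.4 CPM in DTR IP. In CPM as deposited these groups touch without overlapping, since the lowest DTR IP library, at 14.24 CPM, was barely above the highest control IP library, at 14.14. After quantile normalization, the scale of the test, they overlapped, and the lowest DTR IP library was 0.922 times the highest control IP library. The LFC was 0.52 (95% interval 0.07 to 0.97, adjusted p = 0.11, limma), and in the paired fit the adjusted p was 0.034 (limma), where 11.8% of all genes were called higher and 10.4% lower. This pairing of control with DTR pools was inferred from the data and is not given by the methods. In input Nab2 was at 19.1 ± 4.26 CPM in controls and 23.1 ± 6.43 in DTR (LFC = 0.25, adjusted p = 0.55, limma). Nab2 overlaps Stat6, Nemp1 and Gm16229 on the opposite strand of chromosome 10, and the library kit does not mark strand, so reads of overlapping exons cannot be assigned to one of them with certainty.

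Thus 2 of the 6 genes rose and 0 fell in IP, and likewise in input. Of all 16994 genes tested, 8.44% were called higher and 7.30% lower in IP, and 7.17% and 5.21% in input. The tests of edgeR and DESeq2 likewise called 2 genes higher and 0 lower in IP and in input. At an unadjusted p under 0.05 3 were higher (Nab2 in addition) and 1, Nab1, lower in IP (limma). In input 2 were higher and 0 lower at that p (limma). Of all genes, 14.9% and 13.5% were higher and lower in IP at that p, and 12.6% and 10.6% in input. With the study's criteria for a differentially expressed gene (adjusted p under 0.05, an absolute LFC of at least 1 and a separation above 1.5), Egr1 and Egr4 were called in IP and in input, where 1.12% and 1.34% of all genes were called higher.

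**Figure D2:**
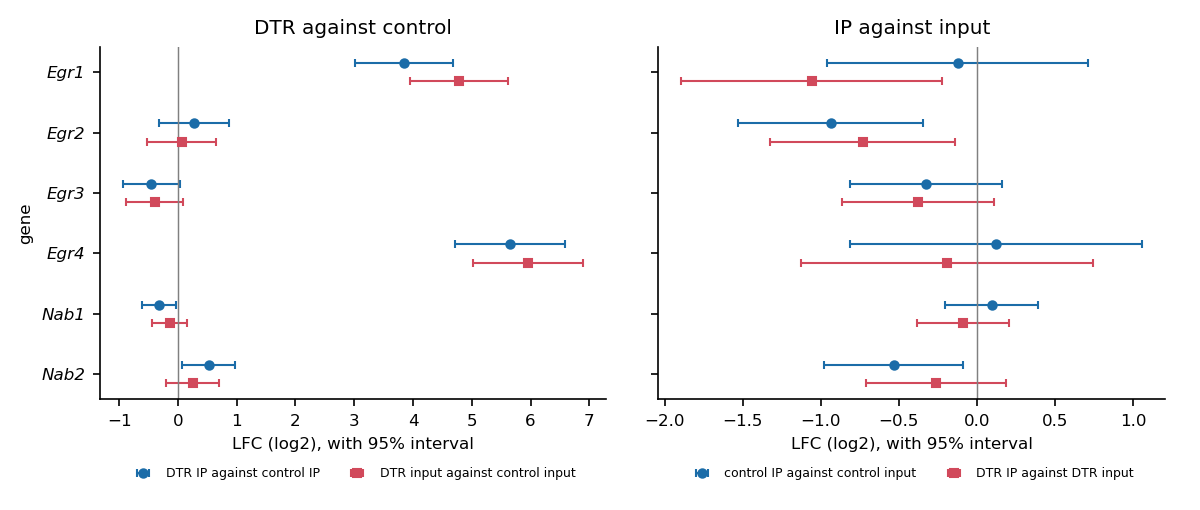
LFC (x axis, log2 scale) of each gene with its 95% interval from limma, for DTR against control on the left and for IP against input on the right (4 libraries per group; colours mark the 2 comparisons of each panel). On the left only Egr1 and Egr4 lie beyond 1, and on the right the intervals of Egr2 lie below 0 in both treatments, that of Egr1 after damage and that of Nab2 in controls.

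Per length of their merged exons, the genes also changed order. In control input Egr2 stood at 20.6 ± 7.38 CPM per kb (SD, n = 4), Egr1 at 12.3 ± 3.13, Nab1 at 10.2 ± 1.48 and Nab2 at 6.49 ± 1.45, and neighbours in this order overlapped. Egr3, at 0.446, and Egr4, at 0.0191 CPM per kb, lay below these without overlap. In control IP Egr1, Egr2 and Nab1 were at 11.1, 10.9 and 10.9 CPM per kb and could not be ranked, while Nab2 was lower at 4.29. After damage Egr1 was at 171 ± 91.0 CPM per kb in IP and 379 ± 186 in input, above all others in every library. Egr4, at 16.4 ± 10.4 CPM per kb in DTR IP, overlapped Egr2 at 13.1 ± 4.71, although it was the lowest of the 6 in controls. Of the summed Egr signal per kb, Egr1 made up 51.4% ± 7.72 in control IP and 84.5% ± 3.01 in DTR IP, and Egr2 47.0% and 7.41%, while no difference in its own level passed the test. The ratio of summed Egr to summed Nab signal per kb went from 1.46 (1.09 to 1.88 over libraries) to 13.2 (5.19 to 19.7) in IP and from 2.03 to 25.9 in input. These shares and ratios were not tested.

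The comparison of IP with input asks which transcripts are more or less abundant on ribosomes of the Cre+ cells than in the whole tissue. Of the 6 genes, 1 was lower and 0 higher in control IP than in control input, and 2 were lower and 0 higher in DTR IP than in DTR input, where 20.7% and 20.5% of all genes tested were lower and 19.3% and 18.6% higher. In edgeR, in DESeq2 and in limma at an unadjusted p under 0.05, 0 of the 6 were higher in IP in either treatment, against 23.1% and 22.1% of all genes at that unadjusted p in control and DTR libraries. In DTR libraries edgeR and DESeq2 called 1 lower in place of 2. With the pool as a term in the fit, 2 were lower in each treatment, where 25.3% and 25.6% of all genes were lower. Egr2 was lower in control IP (LFC = -0.94, 95% interval -1.53 to -0.35, adjusted p = 0.013, limma) and its ratio of IP to input was 0.539, 0.636, 0.502 and 0.404 in control pools 1 to 4. The call was lost without control input replicate 1 (LFC = -0.75) or control IP replicate 3 (LFC = -0.72), both with an adjusted p of 0.055 (limma). In DTR pools the ratio was 0.780, 0.619, 0.546 and 0.528 (LFC = -0.73, adjusted p = 0.047, limma; 7.1e-05 with pools paired). Egr2 was thus below its input in all 8 pools. The unpaired call after damage ended in edgeR (adjusted p = 0.087) and DESeq2 (adjusted p = 0.12), and in limma when 1 library was left out, namely DTR input replicate 1, 2 or 3, DTR IP replicate 2, 3 or 4, or control input replicate 2 or 4 (LFC from -0.76 to -0.59, adjusted p from 0.054 to 0.14, limma).

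Egr1 was lower in IP than in input after damage. Its ratio of IP to input was 0.771, 1.20, 0.815 and 0.922 in the control pools and 0.453, 0.483, 0.471 and 0.383 in the DTR pools. All 4 DTR ratios were below all 4 control ratios, and the share of all genes with such a separation was not counted. For Fos the ratios were 1.23, 1.88, 1.32 and 1.23 in control pools and 0.929, 0.875, 1.21 and 0.712 in DTR pools. They were separated only narrowly, by 1.225 against 1.206. For Junb the mean ratio was 2.09 ± 0.352 (SD, n = 4) and 1.23 ± 0.306, with overlap through DTR pool 3, and for Jun 0.914 and 0.861 with wide overlap. Atf3 (means 0.886 and 0.781) and Maff (0.810 and 0.787) also overlapped widely. In DTR libraries the LFC of Egr1 between IP and input was -1.06 (95% interval -1.89 to -0.22, adjusted p = 0.042, limma; 1e-06 with pools paired), and in control libraries it was -0.12 (adjusted p = 0.84, limma). Without pairing the DTR call was lost without DTR input replicate 1 (LFC = -0.77) or 2 (-0.86), DTR IP replicate 3 (-0.67) or 4 (-0.91), or control IP replicate 2 (-1.06), with adjusted p from 0.051 to 0.18 (limma). The rise of Egr1 after damage was 0.93 log2 units smaller in IP than in input. This difference did not pass the test without pairing (adjusted p = 1, limma; 0.0118% of all genes called lower), and passed with pools paired (adjusted p = 0.023, limma; 0.147% of all genes called lower). Of 37 other immediate early genes, 0 passed for this difference with or without pairing; at an unadjusted p under 0.05 4 were lower without pairing and 11 with it, against 2.65% and 4.70% of all genes, and 0 higher in either (limma), and edgeR and DESeq2 called 0. The pairing follows the methods, in which input and IP are parts of the same homogenate.

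For Egr4 the ratio of IP to input in DTR pools was 0.906, 0.868, 0.994 and 0.792, close to 1 in each pool (LFC = -0.19, 95% interval -1.13 to 0.74, adjusted p = 0.77, limma). A difference between Egr1 and Egr4 was not tested. Nab2 had ratios of 0.707, 0.775, 0.479 and 0.763 in control pools, all below 1 (LFC = -0.53, adjusted p = 0.054, limma; 0.0053 with pools paired), and of 1.11, 0.757, 0.729 and 0.847 in DTR pools. The unpaired adjusted p of Nab2 passed when control input replicate 1 (LFC = -0.64), control IP replicate 4 (-0.61), DTR IP replicate 2 (-0.53) or 4 (-0.53) or DTR input replicate 4 (-0.53) was left out, so this gene lies at the threshold. Nab1 and Egr3 did not pass the test in either treatment.

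The 2 genes that rose varied between DTR pools in the same order. Egr1 and Egr4 were highest in pool 1, followed by pools 2, 4 and 3, in input and again in IP. The highest library was 3.48 times the lowest for Egr1 in DTR IP and 5.56 times for Egr4. Fos and Atf3 had this same order of pools in both kinds of RNA, with a span of 2.95 and 1.51 times in DTR IP, although pools 4 and 3 were both at 15.3 CPM for Atf3 in IP. Cyr61, a matricellular protein gene, had it in both as well, with a span of 1.91 in input and 2.24 in IP. The order was read for some of the other immediate early genes that rose, and not for all. Jun and Junb did not share it: Jun had the order 1, 4, 2, 3 in input and 2, 1, 4, 3 in IP, and Junb 1, 4, 2, 3 and 1, 4, 3, 2. Fosb and Maff had the order of Egr1 in input and not in IP, and Klf6, Gadd45b and Gadd45g in neither. Nab2 did not: it was highest in pool 4 in both, and Egr2 was highest in pool 1 and lowest in pool 4 in both. The summed level of 10 neuron markers in DTR IP was 429, 290, 193 and 128 CPM in pools 1 to 4, the order of Egr2, and that of 12 macrophage markers was 92.1, 54.6, 77.8 and 85.6 CPM. The part of these cells in the spread between pools was not tested.

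**Figure D3:**
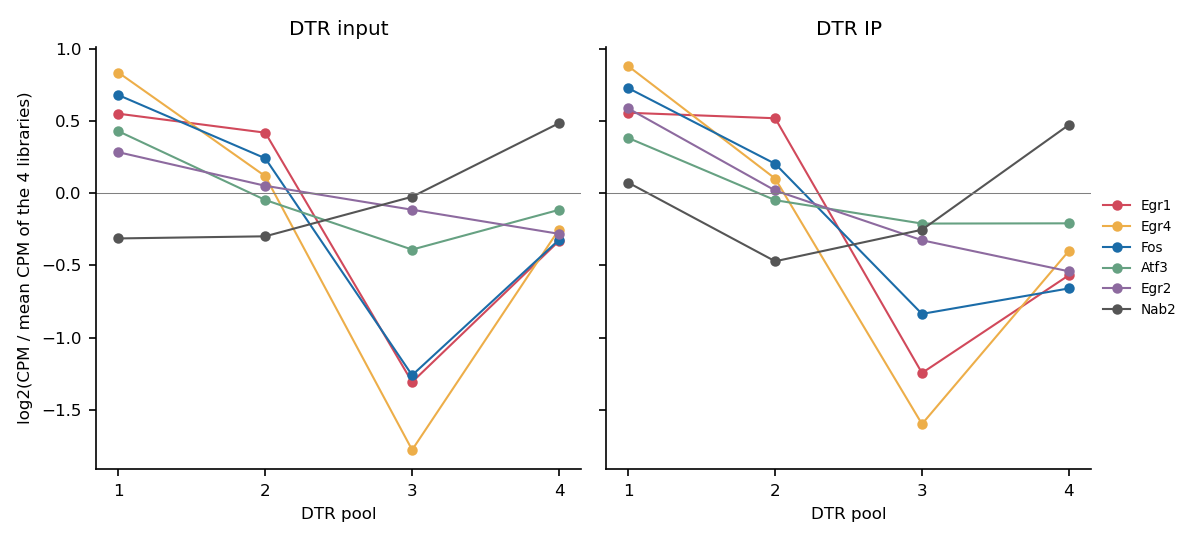
Level of 6 genes in each of the 4 DTR pools relative to the mean CPM of the 4 libraries (y axis, log2), in input on the left and IP on the right; each line is a gene. Egr1, Egr4 and Fos share the order of pools 1, 2, 4 and 3 in both panels, whereas Nab2 is highest in pool 4.

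Markers of other cells moved with damage as well and are given beside the rise of Egr1 and Egr4. The unpaired limma counts of each list below stand against the shares of all genes given above. These were 8.44% higher and 7.30% lower in IP, and 7.17% and 5.21% in input. Of 12 macrophage markers, 7 rose in IP and 8 in input, and 0 fell in either (at an unadjusted p under 0.05 0 fell by limma, as in edgeR and DESeq2). Their summed level went from 36.0 ± 7.86 to 77.5 ± 16.4 CPM (SD, n = 4) in IP and from 154 ± 6.11 to 274 ± 50.7 CPM in input. C1qb (LFC = 1.36) and C1qc (1.20), subunits of complement C1q, rose most in IP. Csf1r was the most abundant marker over all 16 libraries, at 24.7 CPM on average, while in DTR IP C1qc was higher (14.8 against 10.2 CPM). None was at 0 in all libraries. The part of these cells in the rise of Egr1 and Egr4 was not tested. Of the 14 GER and supporting cell markers, 9 fell in IP and 8 in input, among them Fgfr3 (LFC = -2.52 in IP) and Lgr5, and 0 rose in IP and 2 in input (limma; at an unadjusted p under 0.05 0 rose in IP, and edgeR and DESeq2 called 0 higher in either). Whether the cells that gave the Egr1 and Egr4 signal changed in number was not tested.

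The other immediate early genes give the context of the rise. Of 38 in the list, 37 were tested. In IP 13 rose and 2 fell, and in input 19 rose and 1 fell, with a median LFC of 0.40 and 0.57 against -0.0043 and -0.0205 for all genes tested. Fosb, an AP-1 subunit whose mean in IP went from 0.342 to 3.89 CPM, passed the filter on low values through the DTR groups alone. With the pseudocount of 0.5, which lowers the LFC of genes at low levels such as Fosb (2.26), Maff and Atf3 more than that of Jun, the largest LFCs in IP were those of Jun (LFC = 2.75, SE 0.183, adjusted p = 3.9e-09, limma), an AP-1 subunit, and Maff (2.72, SE 0.174, adjusted p = 2.3e-09), a small MAF factor. Fos, the partner of Jun in AP-1, went from 8.13 ± 0.822 to 49.9 ± 25.5 CPM in IP (LFC = 2.33, adjusted p = 5.5e-05, limma), and Atf3, a stress-induced factor, from 2.35 ± 0.711 to 17.7 ± 3.68 CPM (LFC = 2.55, adjusted p = 1.9e-07, limma). Junb went from 38.1 ± 5.23 to 83.0 ± 16.2 CPM (LFC = 1.10, adjusted p = 0.00023, limma). Each of these LFCs was smaller than those of Egr1 and Egr4. The 2 that fell in IP were Nr4a3, a nuclear receptor (LFC = -1.04, adjusted p = 0.011, limma), and Btg2, an antiproliferative gene (LFC = -0.80, adjusted p = 0.0072, limma). In the paired fit 18 rose and 4 fell in IP. The nuclear receptor Nr4a1, induced with Egr1 in many cells, had an LFC of -0.07 in IP (adjusted p = 0.74, limma), and the ERK phosphatase Dusp6 one of -0.32 (adjusted p = 0.071, limma). Both are among the 22 of 37 that did not pass in IP in the unpaired fit. Dusp6 was still lower in DTR than in control for every replicate number, in IP and in input. In IP it was at 103.9, 106.9, 96.8 and 86.8 CPM in control pools and at 96.5, 80.2, 82.4 and 63.9 CPM in DTR pools.

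**Figure D4:**
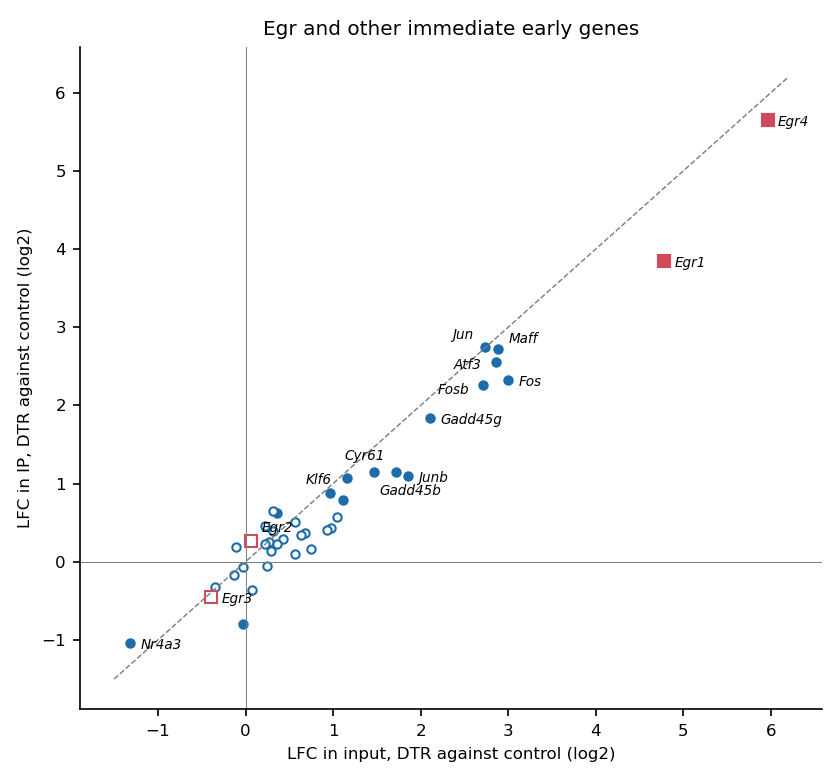
LFC of DTR against control in input (x axis) and IP (y axis), log2, for 37 other immediate early genes (blue circles) and the 4 Egr genes (red squares); filled symbols passed the test in IP, and the dashed line marks equal change. Egr4 and Egr1 lie farthest from the origin, Egr1 below the line, and Egr2 and Egr3 lie near the centre.

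Genes that act upstream of Egr transcription were counted next. Of 9 genes for SRF, the ELK and MKL factors and the CREB group, 0 passed in IP or in input (limma). At an unadjusted p under 0.05 1 was higher in IP and 0 in input, edgeR called 0 in both, and DESeq2 called 1 higher in IP. Srf was at an LFC of 0.14 in IP (adjusted p = 0.59, limma). Of 13 genes from RAS to the RSK kinases, 0 rose and 2 fell in both kinds of RNA (limma; at an unadjusted p under 0.05 1 was higher in each, and edgeR and DESeq2 called 0 higher; in the paired fit 1 rose in IP). Those that fell were Rps6ka1, a RSK kinase (LFC = -0.58 in IP, adjusted p = 0.0083, limma), and Map2k1, which encodes MEK1 (-0.39, adjusted p = 0.010). Activity of this pathway lies in phosphorylation and is not measured by RNA.

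Among cofactors of EGR and NAB proteins and factors that bind similar sites, 8 of 9 were tested and 2 rose in IP, the acetyltransferases Crebbp (LFC = 0.54, adjusted p = 0.0031, limma) and Ep300 (0.54, adjusted p = 0.0082, limma). In the paired fit 4 rose. In input Crebbp, Ep300 and Ddx20 rose. None fell in IP or input, also at an unadjusted p under 0.05 by limma, in edgeR and in DESeq2. At that unadjusted p 6 were higher in IP and 3 in input (limma), against 14.9% and 12.6% of all genes. In edgeR and in DESeq2 5 were higher in IP at that unadjusted p. Chd3 and Chd4, the helicases through which NAB2 represses, did not pass the test in either.

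Of 20 genes known as EGR targets in other tissues, 16 were tested. In IP 4 rose and 1 fell, with a median LFC of 0.14, and in input again 4 rose and 1 fell (limma). Of all genes tested, 8.44% were called higher and 7.30% lower in IP, and 7.17% and 5.21% in input. In IP edgeR and DESeq2 called 3 higher and the paired fit 5, and in input DESeq2 and the paired fit called 2 lower. Gdf15, a stress-induced cytokine, rose from 0.231 ± 0.0904 to 2.38 ± 0.600 CPM in IP (LFC = 1.86, adjusted p = 6.2e-06, limma) and, like Egr4, passed the filter through the DTR groups alone. Icam1, an adhesion molecule for leukocytes, rose from 20.9 ± 3.52 to 56.1 ± 4.55 CPM (LFC = 1.38, adjusted p = 4.6e-06, limma). Trp53 and F3 rose by less (LFC = 0.57 and 0.40). Cd44, a hyaluronan receptor, fell (LFC = -0.60, adjusted p = 0.00036, limma). The remaining 11 tested targets, such as Tgfb1, Vegfa and Fn1, did not pass in IP.

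Egr2 was set beside the myelin genes it controls in Schwann cells. In input 6 of 8 myelin targets fell and 0 rose (limma; 0 rose also at an unadjusted p under 0.05, in edgeR and in DESeq2), with a median LFC of -1.002. Mbp, a myelin sheath protein, went from 1339 ± 386 to 502 ± 111 CPM (LFC = -1.37, adjusted p = 0.00077, limma). In IP Mbp (LFC = -0.97, adjusted p = 0.011, limma) and the gap junction gene Gjb1 (-0.95, adjusted p = 0.0020) fell, and Ncmap, a myelin membrane protein, rose (0.59, adjusted p = 0.032). Mbp was at 449, 460, 268 and 242 CPM in control IP pools 1 to 4 and at 163, 149, 241 and 157 CPM in DTR IP. The groups touch without overlapping (241.7 and 240.75 CPM), and control pools 1 and 2 stood well above the others. The summed myelin targets were 1001, 978.5, 622 and 573.5 CPM in control IP and 518, 458, 703 and 553 CPM in DTR IP, and these groups overlapped through DTR pool 3. Of 12 Schwann cell markers, some of them shared with the myelin list, 8 fell in input and 3 in IP, or 6 in IP in the paired fit. S100b, a calcium-binding protein of glia, rose in IP by limma (LFC = 0.58), but edgeR and DESeq2 called 0 of the 12 higher in IP and 5 and 6 lower. Of 10 neuron markers 1 fell in IP and in input, Syt1, a synaptic vesicle protein (LFC = -0.86 in IP, adjusted p = 4.4e-05, limma), and in the paired fit 4 fell in IP and 5 in input, where 7.83% of all genes fell. The LFC of Egr2 itself was 0.06 in input and 0.27 in IP. The summed level of the myelin targets was 3198 ± 870 CPM (SD, n = 4) in control input and 1396 ± 302 CPM in DTR input, and the 4 DTR libraries lay below the 4 control libraries.

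**Figure D5:**
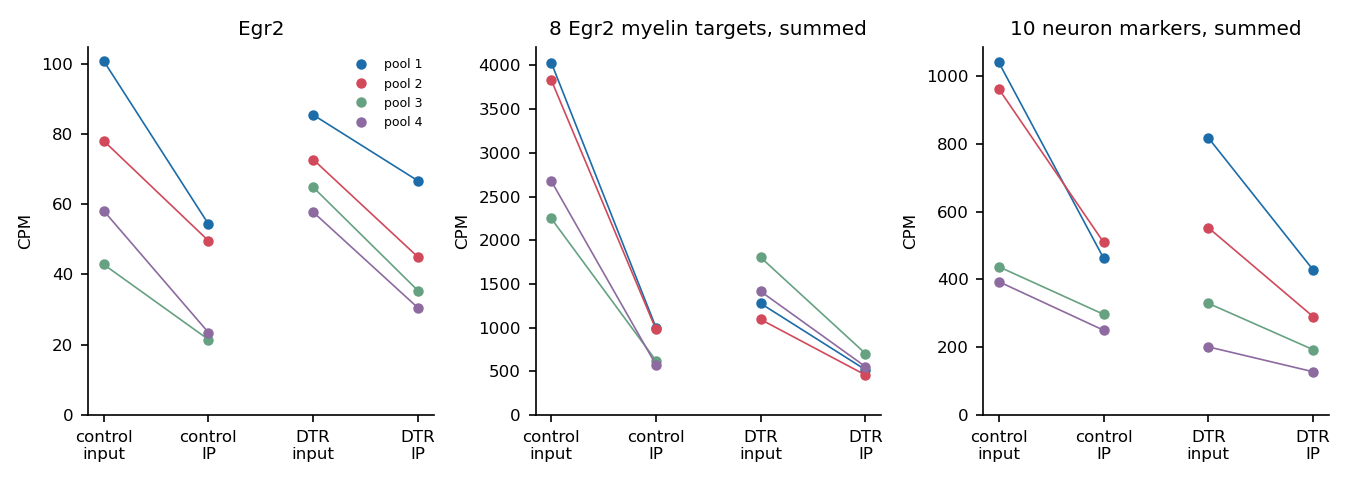
CPM of Egr2, summed CPM of 8 myelin genes controlled by Egr2 in Schwann cells, and summed CPM of 10 neuron markers, in each library; y axes start at 0, colours mark the replicate number and lines join input and IP of one pool. The myelin sum was lower in all 4 DTR input libraries than in all 4 control input libraries, Egr2 overlapped between them, and pool 1 had both the most Egr2 and the most neuron marker RNA in control input, DTR input and DTR IP.

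Genes with the most similar pattern over the 16 libraries are given for each member, as Pearson's r on log2 quantile normalized CPM. These values are a description, since the libraries share 4 groups and 8 pools, and the r of the deviations from group means is given second. Egr2 was most like Syn1 (r = 0.951, deviations 0.896), which encodes the vesicle protein synapsin, Ccdc85a (0.946, 0.896) and Snap25 (0.942, 0.897), a SNARE protein of synapses. The summed neuron markers were 1040 and 962 CPM in control input pools 1 and 2 and 437 and 393 in pools 3 and 4, and Syn1 and Snap25 were each higher in pools 1 and 2. Egr1 was most like Nr1d1, a clock repressor (r = 0.990, deviations 0.854), 5031425E22Rik (0.989, 0.828) and Ctrb1 (0.987, 0.828). Nr1d1 went from 22.3 ± 2.76 to 148 ± 46.4 CPM in IP. Egr4 was most like Gm44605 (r = 0.991, deviations 0.867), Hist1h4n (0.989, 0.774) and Relb, an NF-kB subunit (0.989, 0.73). The r of Egr4 with Egr1 was 0.980 over all libraries and 0.863 for deviations. Egr3 was most like Btnl2 (r = 0.862), Hdac2 (0.835) and Upp2 (0.820), Nab1 like Ryk (0.869), Lmbr1 (0.853) and Inafm2 (0.841), and Nab2 like Srebf1 (0.924) and Gm1661 (0.888). Nab2 had an r of 0.425 with Egr1 over all libraries and -0.405 for deviations within groups, so it did not follow Egr1 from pool to pool.

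Promoter sequence was compared for the gene with the largest rise and for a relative that did not pass the test. RefSeq windows of 300 bases, from 250 before to 50 after a transcript start (GRCm38.p6), were at hand for 4 of the 6 genes, namely Egr2 (5 windows), Egr4, Nab1 and Nab2. Shown are the 250 bases before the start of Egr4, chr6:85513590-85513839 (minus strand), and of one Egr2 start, chr10:67537619-67537868 (plus strand), which lies inside the annotated Egr2 gene and outside its exons. Capitals mark matches to the CArG box, the site of SRF, and to TGACG on either strand, the core of the cAMP response element (CRE) bound by CREB.
Egr4: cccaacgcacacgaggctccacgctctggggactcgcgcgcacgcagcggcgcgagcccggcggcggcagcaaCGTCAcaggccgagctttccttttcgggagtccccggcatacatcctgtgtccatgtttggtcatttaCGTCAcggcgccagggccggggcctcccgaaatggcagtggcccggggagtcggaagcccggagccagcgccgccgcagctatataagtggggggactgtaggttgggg
Egr2: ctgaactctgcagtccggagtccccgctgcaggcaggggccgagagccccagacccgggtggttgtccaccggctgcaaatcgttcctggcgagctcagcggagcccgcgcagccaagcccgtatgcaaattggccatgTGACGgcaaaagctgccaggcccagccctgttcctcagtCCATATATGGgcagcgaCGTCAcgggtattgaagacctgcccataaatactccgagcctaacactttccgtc
Egr4 held 2 such cores, starting 177 and 109 bases before the start, and no CArG box. The Egr2 window shown held 2 cores, at 111 and 55 bases, and a CArG box at 72 bases before the start. The other Egr2 windows differed: that of the start at 67535499, nearest to the annotated start of the gene, held neither, that of 67537566 held a CArG box and no core, and those of 67537870 and 67537930 overlap the one shown and hold the same matches. The core is common, with 20.8% of all 32851 windows holding at least 1, whereas a CArG box was in 1.63%. The full CRE, TGACGTCA, was in 1.79% of all windows and in none of the 8 windows of these genes. The letters TATAAA, in 13.6% of all windows, were in none of the 8 either. Variants of these letters were not searched, and the Egr4 sequence shown holds the variant tatataag near its end, close to the transcript start. Nab1 held the EGR site GCGTGGGCG at 2 positions, 141 and 109 bases before its start, and GCGGGGGCG at 1, 38 bases before it. These were in 0.612% and 2.91% of all windows, and in no window of Egr2, Egr4 or Nab2. Of the 250 bases before this Nab1 start (52500448), 231 lie in an annotated Nab1 exon, and the matches fall within it. The Nab2 start used (127666703) lies inside the annotated gene (127660918 to 127668568, minus strand), so the bases before the annotated Nab2 start were not searched. A match is a run of letters and not a measured site.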

How the data were processed

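Values were read for 16 libraries, 4 in each group, named by genotype, sample type and replicate number in the sample labels. The authors deposited CPM, made per the methods by alignment to GRCm38 with HISAT2 and counting with HTSeq; the submitters' processing notes name TopHat instead. The annotation release and strand setting are not given in the sources used here. All values above 0 were whole multiples of the value of 1 read (within 0.01), so reads were recovered for edgeR (version 4.0.16, quasi-likelihood) and DESeq2 (version 1.42.0), used as alternatives.

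After quantile normalization, 0.5 was added to each CPM before taking log2. The 16994 genes that reached 0.5 CPM throughout the 4 libraries of any group were tested. One limma fit (version 3.58.1, under R 4.3.3, trend on) took in the 16 libraries, with two-sided p-values adjusted by Benjamini-Hochberg over all tested genes; a gene was called at an adjusted p under 0.05. Separation is the lowest value of the higher group over the highest of the lower, with a floor of 1.08 CPM. The script was tested on simulated data. Replicates were pools of animals.

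Same-numbered libraries deviated together (mean r of deviations from group means 0.357 to 0.407, lowest pair 0.288), so numbers were taken to pair libraries. The mean r for other numbers was -0.135 to -0.119. Deviations within a group sum to 0, which ties these values to those above, so they are no separate comparison. For input and IP the methods give this pairing. For control and DTR pools, which are different animals, it rests on these correlations alone. Gene positions and exon lengths came from GENCODE M21. Intervals of read ratios are exact binomial at 95% and cover counting error only, since amplified reads are not independent molecules. Genes named were the 6 genes, the 2 largest called rises and falls per list in IP, Fos, Jun, Junb, Atf3, Lgr5, Slc1a3 and the 3 most similar genes; others (such as Nr4a1, Dusp6, Srf and Chd4) were chosen after their values were seen, and a few that the rule names are not reported here. The genes, lists and tests were chosen with earlier results of these data known. Alternatives were other scalings, pseudocounts of 0.1 and 1, no filter or at least 2 CPM, compared groups alone, blocks, edgeR, DESeq2, no separation criterion and each library left out.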

Additional observations from a re-analysis of the deposited data

Results flagged for a closer look

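Among 24 groups of 4 libraries (6 genes in 4 groups), 2 held a library whose gap to the nearest other was above Dixon's 95% critical value; chance gives about 1 in 20. Egr3 was at 2.72 CPM in control input replicate 1, against 1.74 CPM in the next library. Egr4 was at 0.262 CPM in control IP replicate 4, from 8 reads, against 0.0299 CPM in the next. The change of Egr1 after damage differed between IP and input by -0.93 log2 units with pools paired (adjusted p = 0.023, limma), and not without it (adjusted p = 1).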

How the results depend on the processing

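Of 30 results (6 genes in 5 comparisons), 23 kept their direction where called and their side of the threshold under all alternatives run, among them the rises of Egr1 and Egr4 in IP and input, and no called direction turned. The LFC of Egr1 between DTR IP and DTR input was -1.06 and lost its call with no filter (adjusted p = 0.12) and with the compared groups alone (0.099), and ranged from -1.47 to -0.67 with 1 library left out. That of Egr2 lost its call without quantile normalization (-0.70), with no filter (-0.73), in edgeR (-0.67) and in DESeq2 (-0.66), and ranged from -0.93 to -0.59; in control libraries it ranged from -1.15 to -0.72. Nab2 between control IP and control input passed without quantile normalization (-0.56), with median centring (-0.57), with at least 2 CPM, with the compared groups alone and with the pool as a replicate block (-0.53 in each), and in DESeq2 (-0.56), and ranged from -0.64 to -0.39. Nab2 in DTR IP against control IP passed with the replicate block (0.52), and Nab1 there ranged from -0.45 to -0.23. The interaction of Egr1 passed with the pool as a replicate block (-0.93). The block changed no other call of these genes. The cause of these differences was not tested. Genes called for the interaction were 2, but 1 without quantile normalization, 0 with a pseudocount of 0.1, with no filter and in edgeR, 40 with the pool block and 49 in DESeq2. Without the separation criterion, differentially expressed genes were 756 in place of 419 in IP, 692 in place of 397 in input, and 1558 in place of 981 for DTR IP against DTR input. In DTR IP against control IP, 62.4% of calls were higher without quantile normalization, 53.6% with it, 49.8% in edgeR and 50.6% in DESeq2. Depth limits Egr4 in controls, where 3 of 8 libraries had 0 reads.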

Other observations

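Marker lists of other cells were counted in the same comparisons. Of 12 hair cell markers, 3 rose and 1 fell in DTR IP against control IP, led by Slc17a8, the vesicular glutamate transporter of inner hair cells (LFC = 1.42, adjusted p = 0.00065, limma), and Otof (0.66), with Atoh1, the hair cell determinant, lower (-0.86, adjusted p = 0.020, limma). In edgeR 1 rose. In input 0 rose and 1 fell (limma; 1 rose at an unadjusted p under 0.05 and in DESeq2). Of 8 mesenchyme markers 4 rose in IP, with Tbx18 (LFC = 0.67) and Col1a2 (0.65) highest, and 1 in input, or 3 and 0 in edgeR; 0 fell by limma, at an unadjusted p under 0.05, in edgeR or in DESeq2. Of 9 endothelial and pericyte markers 2 rose in IP, Pecam1 (LFC = 0.78) and Emcn (0.65), or 4 with the replicate block, and 1 in input; 0 fell by any of these tools.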
